A study of Mus musculus with 86 samples.

Results

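Water extracts of peony root and liquorice root that differ in the proportion of the plants, JGT03 and JGT04, were compared in the soleus, a slow leg muscle of the mouse, at the same dose of 400 mg/kg. Jakyak-gamcho-tang (JGT) is the traditional formula of these plants. JGT03 holds peony and liquorice at 1:1 by weight, and JGT04 at 1:2. The comparison takes 9 of the 86 RNA-seq libraries of the series, chosen by their labels: the 4 soleus libraries labelled JGT04 400 mg/kg and the 5 labelled JGT03 400 mg/kg. All 9 mice were male C57BL/6N, 10 weeks old when supplied and at least 1 week older when treated, and had no engineered allele named in the labels. All were injected intraperitoneally with dexamethasone (DEX), a synthetic glucocorticoid, at 25 mg/kg each day for 10 days, and were gavaged with extract in 0.5% carboxymethylcellulose 30 min after each injection. Muscle was taken 1 day after the last treatment. The groups set beside them in soleus were JGT03 and JGT04 at 100 mg/kg (5 mice each, other mice), JGT02 (2:1) at 100 and 400 mg/kg (5 each), resveratrol at 200 mg/kg (5), DEX alone (4, buffer by gavage) and non-treated mice (5, buffer by both routes). The labels place all samples in 1 batch, and each library is of 1 mouse.

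Glucocorticoids in excess waste skeletal muscle by raising protein breakdown and curbing growth signalling through the insulin and IGF pathway. The soleus is rich in slow, oxidative fibres, which lose less mass under DEX than fast fibres do. Peony supplies paeoniflorin, and liquorice supplies glycyrrhizin, whose product glycyrrhetinic acid inhibits the 11beta-hydroxysteroid dehydrogenases that interconvert active and inactive glucocorticoids. The labels do not give the content of these constituents in either extract.

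Total counts ran from 22.2 M to 29.5 M per library, and the 10 most abundant genes took 26.7% to 33.7% of them. Levels are in CPM, the count of a gene relative to its library total, scaled by TMM over the 43 soleus libraries, and group levels are means ± SD (n = 5 with JGT03, n = 4 with JGT04). Differences are log2 fold changes of JGT04 against JGT03 ± standard error (SE) from edgeR's quasi-likelihood fit. Its p-values were adjusted by Benjamini-Hochberg over all genes tested, and a gene passed under 0.05. Per-library values follow mice 1 to 5 of JGT03 and mice 1 to 4 of JGT04. The slow myosin gene Myh7 stood at 7209, 7659, 7382, 4491 and 7850 CPM with JGT03 and at 6249, 6065, 6302 and 6218 with JGT04. It was below the rest of its group in JGT03 mouse 4. The fast myosin gene Myh4 stood at 919.5, 1040, 1303, 2886 and 334 CPM with JGT03 and at 169.9, 2217, 892 and 305 with JGT04, and the groups overlapped for both myosins.

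One library of the JGT03 group stood apart from its group. The profile of JGT03 mouse 3 correlated at a median of 0.98351 with the other JGT03 libraries and at 0.98685 with the JGT04 libraries, whereas each of the other 8 libraries correlated better with its own group. Fat-cell RNA moved with this split. The summed level of 13 adipocyte markers (without Car3, which slow muscle itself expresses) was 360, 548, 1154, 447 and 394 CPM with JGT03 and 999, 976, 1328 and 1721 with JGT04. JGT03 mouse 3 thus lay within the JGT04 range, and the other 4 JGT03 mice lay below all JGT04 mice. In the other soleus groups the medians of this sum were 472 CPM in non-treated mice, 1051 with DEX, 928 with JGT03 and 995 with JGT04 at 100 mg/kg, 722 and 496 with JGT02 at 100 and 400 mg/kg and 676 with resveratrol. The JGT03 mice at 400 mg/kg therefore had the lowest median of all 9 groups and the JGT04 mice at 400 mg/kg the highest. Ucp1, the brown-fat uncoupling protein, was at 0 in every library of both groups. In bulk tissue, fewer cells of a type and less RNA per cell cannot be told apart.

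**Figure D1:**
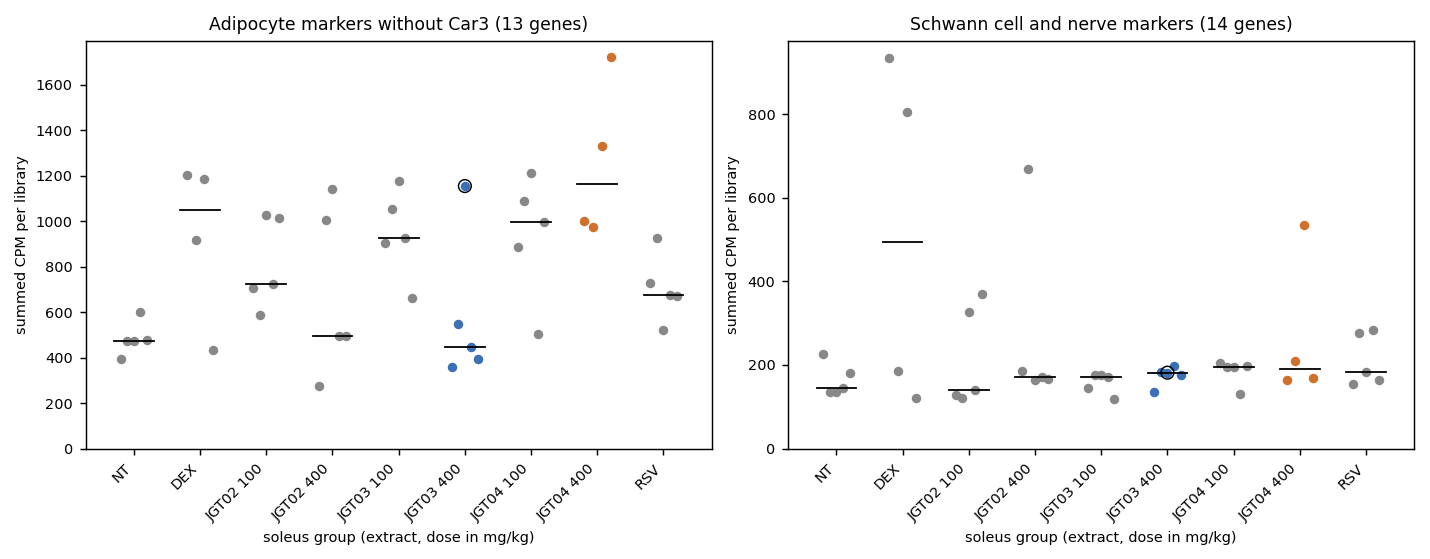
Summed CPM of adipocyte markers without Car3 (left) and of Schwann cell and nerve markers (right), 1 point per soleus library, with the median of each group as a bar. The ringed point is JGT03 400 mg/kg mouse 3, at 1154 CPM of adipocyte markers against 360 to 548 in the other mice of its group.

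Of 14342 genes tested, 409 differed between JGT04 and JGT03 at 400 mg/kg (2.85%). Higher with JGT04 were 171 (1.19%) and lower were 238 (1.66%). Without adjustment, 2982 of the 14342 had a p under 0.05 by edgeR. Counts of list members at an unadjusted p under 0.05 are to be read beside that share. Most differences were small, with a median size of 0.44 on the log2 scale among the 409, and at least 2-fold in 44 of the higher and 6 of the lower genes. For 324 of the 409 the libraries of the groups did not overlap, while over all genes tested 1027 (7.16%) did not overlap. The count rested on which mice were included: it was 1059 without JGT03 mouse 3 (596 higher, 463 lower), which kept 403 of the 409, and 66 without JGT03 mouse 1. It was 139 without JGT03 mouse 5, and 194, 159, 243 and 138 without JGT04 mouse 1, 2, 3 or 4. The mean log2 level of the 13 tested adipocyte markers was then added as a term in the fit, a choice made after the data were seen. Unlike the sum above, this term includes Car3. Fabp4 and Plin4, which are among the 409, are part of it. With the term no gene passed by edgeR (0 of 14342, with 1483 at an unadjusted p under 0.05, 317 of the 409 among them). All 409 then kept their direction, the median log2 fold change of the higher genes went from 0.59 to 0.33, that of the lower genes from -0.36 to -0.31, and the median SE from 0.099 to 0.12.

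**Figure D2:**
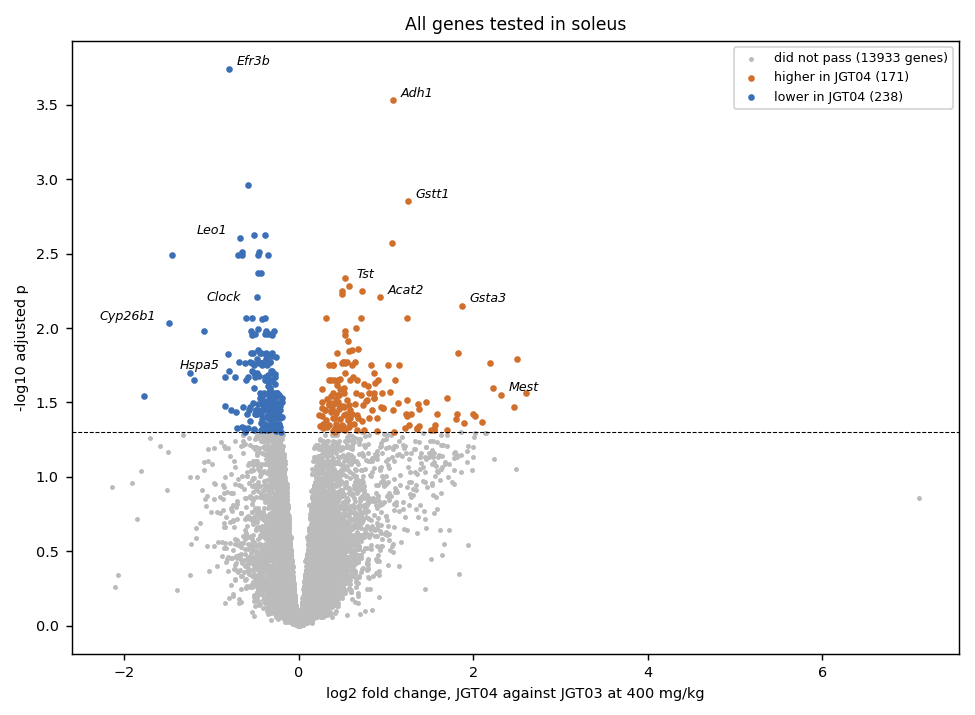
Each point is 1 of 14342 genes, with the log2 fold change of JGT04 against JGT03 at 400 mg/kg on the x axis and -log10 of the adjusted p on the y axis, where the dashed line is the 0.05 threshold. The 238 lower genes cluster at small fold changes, and the 171 higher genes reach further from 0.

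Of the 59 named genes that passed, 19 kept their call when any 1 of the 9 libraries was left out. For the others, the results below give the libraries without which the call was lost, or their number. Fmo1, Fmo2, Gpx1 and Rheb also passed but are not among the 59. They passed without JGT03 mouse 3, and their calls without any other library were not examined. Not every paragraph opens with a gene of the 19.

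Several enzymes that detoxify or oxidise small molecules, grouped here after their values were seen, were higher with JGT04. Adh1 (chromosome 3, 138260991 to 138290698), class I alcohol dehydrogenase, which also oxidises retinol, stood at 7.47, 8.64, 12.6, 8.78 and 9.92 CPM with JGT03 and at 15.8, 21.6, 21.9 and 21 with JGT04. All 4 JGT04 mice lay above all 5 JGT03 mice (log2 1.08 ± 0.13, adjusted p = 0.000295). Gstt1 (chromosome 10, 75783813 to 75798584), a theta-class glutathione transferase, stood at 3.82, 5.66, 7.57, 3.77 and 5.21 CPM with JGT03 and at 10.5, 12.6, 12.2 and 14.3 with JGT04. Again no library overlapped (log2 1.25 ± 0.17, adjusted p = 0.00141), and Adh1 and Gstt1 were the 2 genes that also passed in a fit of all 9 soleus groups. Gsta3, an alpha-class glutathione transferase of low level here, stood at 0.357, 0.553, 1.23, 0.738 and 0.411 CPM with JGT03 and at 1.64, 1.71, 2.44 and 3.95 with JGT04, without overlap (log2 1.87 ± 0.33, adjusted p = 0.0071). Tst, the mitochondrial thiosulfate sulfurtransferase that handles cyanide and sulfide, stood at 5.97, 6.55, 8.37, 7.34 and 6.67 CPM with JGT03 and at 9.79, 10.4, 10.1 and 11.4 with JGT04. Its lowest JGT04 mouse was above its highest JGT03 mouse (log2 0.57 ± 0.10, adjusted p = 0.00519). Of 34 tested genes on a list of antioxidant and detoxification genes, 5 were higher and 0 lower: Gstt1, Gsta3, the flavin monooxygenases Fmo1 (log2 0.52 ± 0.11, adjusted p = 0.0168) and Fmo2 (0.54 ± 0.10, 0.0112), and the glutathione peroxidase Gpx1 (0.51 ± 0.12, 0.0336). The list's median was 0.06 beside 0.0033 over all genes, and 12 members had positive and 1 a negative value with an unadjusted p under 0.05. Over all genes, 2982 of 14342 had such a p in either direction. DESeq2 called 9 higher and 0 lower, and 9 were higher and 0 lower without JGT03 mouse 3. The calls over all genes grew as well. They were 171 higher and 238 lower of 14342 in the main fit and 356 and 517 with DESeq2. Without JGT03 mouse 3 they were 596 and 463 of 14325. Cyb5a, cytochrome b5, the electron donor of many microsomal enzymes, was also higher (17.2 ± 4.66 against 28.4 ± 3.18 CPM, SD, n = 5 and 4; log2 0.72 ± 0.19, adjusted p = 0.0421), but it lost its call without any 1 library except JGT03 mouse 3 (adjusted p up to 0.126). With the adipocyte term in the fit the log2 values were 0.78 for Adh1, 0.74 for Gstt1, 0.85 for Gsta3, 0.40 for Tst and 0.23 for Cyb5a.

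The largest named decrease was in Cyp26b1 (chromosome 6, 84571414 to 84593908), the cytochrome P450 that clears retinoic acid. It stood at 9.15, 12.4, 15.8, 19.4 and 21.6 CPM with JGT03 and at 5, 6.55, 4.25 and 6.4 with JGT04. Every JGT04 mouse was below every JGT03 mouse (log2 -1.49 ± 0.27, adjusted p = 0.00928). At 100 mg/kg the difference had the opposite sign (log2 0.48 ± 0.25, unadjusted p = 0.0684), and did not pass, with means of 7.16 ± 2.07 CPM with JGT03 and 9.98 ± 3.74 with JGT04.

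Genes of lipid use moved both ways, and 3 named genes of amino acid and creatine metabolism were higher. Cpt1a, the liver-type gate of mitochondrial fatty acid entry, stood at 5.86, 7.15, 7.9, 5.71 and 6.63 CPM with JGT03 and at 9.21, 10.1, 12.3 and 11.1 with JGT04, without overlap (log2 0.68 ± 0.13, adjusted p = 0.0138). Prodh, the first enzyme of proline breakdown, stood at 6.79, 8.51, 10.3, 8.86 and 8.37 CPM with JGT03 and at 12.4, 12.8, 14.4 and 14.6 with JGT04, also without overlap (log2 0.66 ± 0.12, adjusted p = 0.01). Acat2, a cytosolic acetyl-CoA acetyltransferase at the start of sterol synthesis, stood at 4.79, 5.66, 7.86, 5.25 and 5.49 CPM with JGT03 and at 9.66, 8.7, 12.9 and 13 with JGT04. The groups did not overlap (log2 0.93 ± 0.16, adjusted p = 0.00622), although 43.75% of the 31-base words of Acat2 recur in other genes, so that reads may be split between them. Acot2, a mitochondrial acyl-CoA thioesterase, was lower: it stood at 30.3, 37.4, 24, 42.3 and 33.6 CPM with JGT03 and at 22.3, 15.6, 17.6 and 21.6 with JGT04. The lowest JGT03 value, in mouse 3, lay just above the highest JGT04 value (log2 -0.80 ± 0.17, adjusted p = 0.0195), and the call was lost without JGT04 mouse 2 or 3 (adjusted p up to 0.061). For Acot2 this share of words is 37.27%. Of 39 tested fatty acid use genes, 3 were higher and 1 lower: besides Cpt1a and Acot2 these were Ucp3, the muscle uncoupling protein (log2 1.15 ± 0.24, adjusted p = 0.0178), and Fabp4, a fatty acid carrier of fat cells and endothelium (log2 0.84 ± 0.21, adjusted p = 0.0356), both with overlapping groups. Ucp3 lost its call without JGT03 mouse 1 or JGT04 mouse 3, and Fabp4 without any 1 library except JGT03 mouse 3. Of 20 lipid synthesis genes 1 was higher and 0 lower, Dgat2, which makes triglyceride (log2 0.51 ± 0.13, adjusted p = 0.0453), and it lost its call without any 1 library except JGT03 mouse 3 and JGT04 mouse 2. The median of that list was 0.32, and without JGT03 mouse 3, 7 of the 20 were higher and the median was 0.43. In that fit 596 of all 14325 genes were higher. With the adipocyte term, which itself holds the list members Pparg and Thrsp, the median was -0.18. Asns, asparagine synthetase, was higher (2.98 ± 1.21 against 6.34 ± 1.65 CPM; log2 1.09 ± 0.27, adjusted p = 0.0357) with JGT04 and lost its call without any 1 library except JGT03 mouse 3 and JGT04 mouse 1. Gamt, which makes creatine, was higher (log2 0.59 ± 0.13, adjusted p = 0.0224) and lost its call without JGT03 mouse 1 or 5 or JGT04 mouse 2. With the adipocyte term the log2 values were 0.32 for Cpt1a, 0.41 for Prodh, 0.45 for Acat2, -0.63 for Acot2, 0.69 for Ucp3, 0.12 for Fabp4, 0.19 for Dgat2, 0.17 for Asns and 0.30 for Gamt. Fabp4 is itself among the markers averaged in that term, so its value there is partly fixed in advance.

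**Figure D3:**
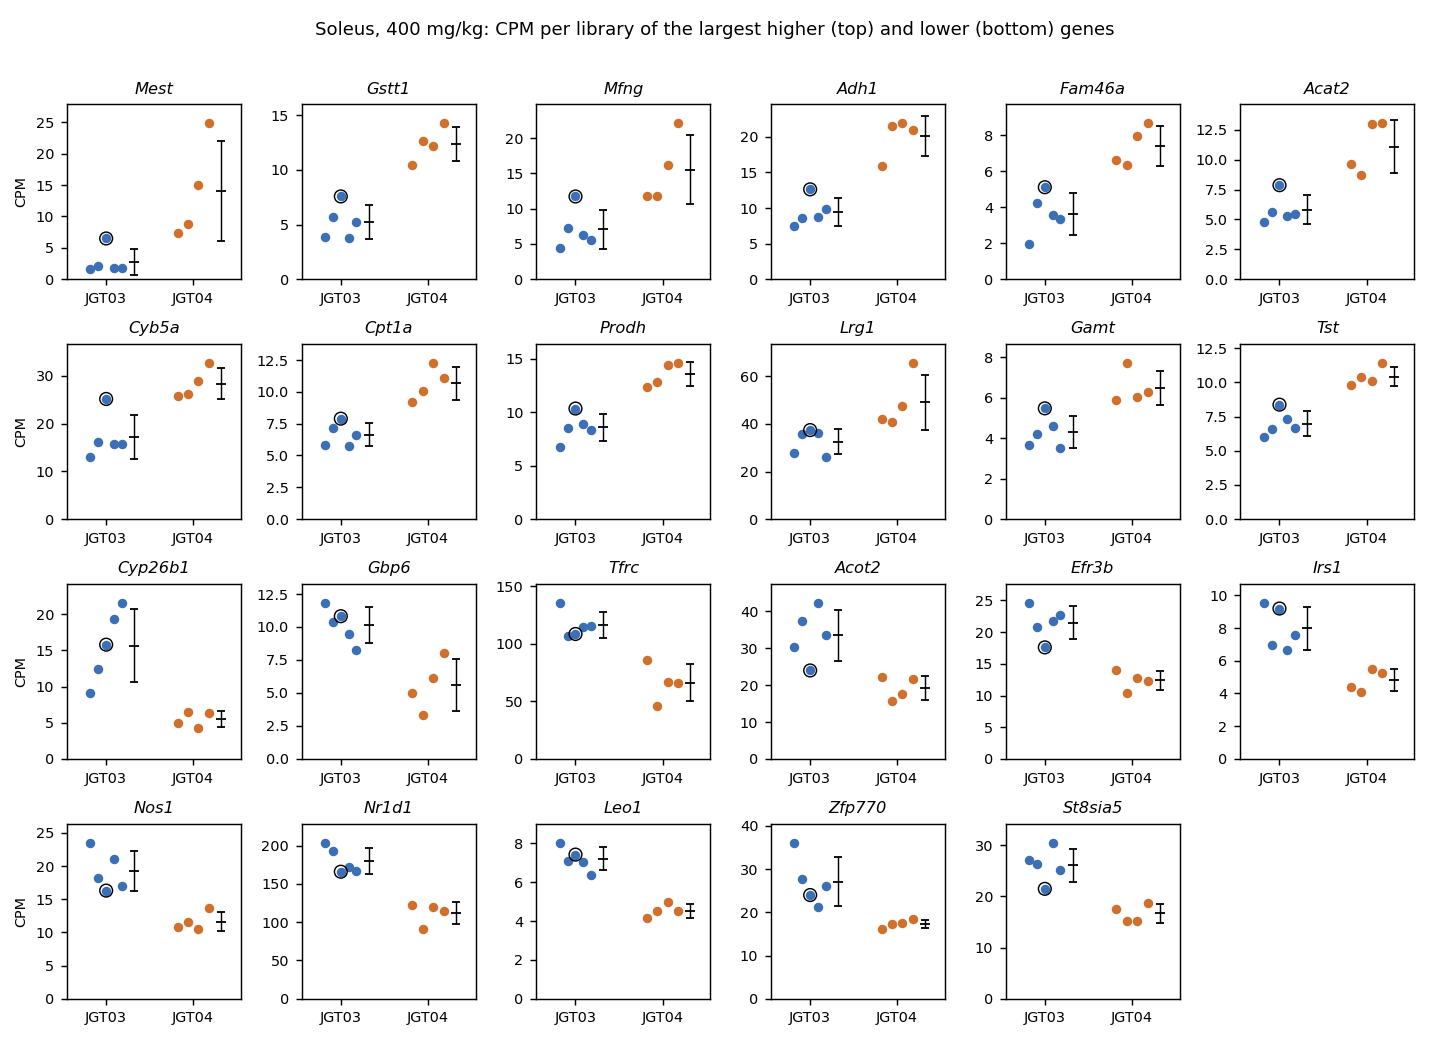
CPM in each library for the 12 largest higher (upper 2 rows) and 11 of the 12 largest lower genes (lower 2 rows) that met the naming rule, with the mean ± SD of each group beside the points and every y axis from 0. The rule required groups without overlap, and the ringed JGT03 mouse 3 was the highest JGT03 library in all 12 higher genes and the lowest in 5 of the 12 lower genes.

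The largest named increase was in Mest, an imprinted gene known to rise in expanding fat tissue. It stood at 1.68, 2.17, 6.49, 1.71 and 1.83 CPM with JGT03 and at 7.41, 8.74, 15 and 24.9 with JGT04. JGT03 mouse 3 lay close to the lowest JGT04 mouse, far above its group (log2 2.32 ± 0.54, adjusted p = 0.028). The call was lost without JGT03 mouse 1, 2, 4 or 5 or JGT04 mouse 4 (adjusted p up to 0.0932), log2 was 2.93 without JGT03 mouse 3, and 0.70 with the adipocyte term. Mfng, a Notch-modifying glycosyltransferase, was likewise highest in mouse 3 among the JGT03 mice (7.05 ± 2.81 against 15.5 ± 4.89 CPM; log2 1.13 ± 0.27, adjusted p = 0.0319), lost its call without JGT03 mouse 1, 2, 4 or 5 or JGT04 mouse 3 or 4, and had a log2 value of 0.15 with that term. Of the 14 adipocyte markers 13 were tested (all but Ucp1), 2 were higher (Plin4, a lipid droplet coat protein, log2 0.78 ± 0.19, adjusted p = 0.0304, lost without 6 of the single libraries, JGT03 mouse 3 not among them, and Fabp4) and 0 lower. The other 11 missed the threshold, among them the defining markers Adipoq (log2 1.68 ± 0.53, adjusted p = 0.0794), Lep (1.92 ± 0.61, 0.08) and Plin1 (1.62 ± 0.56, 0.104). All 13 had positive values with a median of 1.18, and 10 had an unadjusted p under 0.05. Without JGT03 mouse 3, 10 of the 13 passed and the median was 1.60, where 1059 of all 14325 genes passed. Fam46a, a poly(A) polymerase, was higher (log2 1.02 ± 0.21, adjusted p = 0.0176; lost without JGT04 mouse 4, adjusted p = 0.0544), as was Lrg1, a secreted glycoprotein (log2 0.59 ± 0.15, adjusted p = 0.0438; lost without 7 of the 9 libraries, the exceptions being JGT03 mouse 3 and JGT04 mouse 2). The part of fat-cell RNA in the other higher values was not tested beyond the fit with that term.

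The named genes that were lower with JGT04 were of varied function. Efr3b (chromosome 12, 3962554 to 4038915), which anchors a lipid kinase at the plasma membrane, stood at 24.6, 20.8, 17.6, 21.7 and 22.7 CPM with JGT03 and at 14, 10.5, 12.7 and 12.3 with JGT04. It had the smallest p of all genes, and no library overlapped (log2 -0.79 ± 0.09, adjusted p = 0.000181). Leo1, a subunit of the Paf1 complex that travels with RNA polymerase, stood at 8.04, 7.11, 7.43, 7.07 and 6.4 CPM with JGT03 and at 4.14, 4.51, 5 and 4.5 with JGT04, without overlap (log2 -0.67 ± 0.10, adjusted p = 0.00247). St8sia5, a sialyltransferase of gangliosides, stood at 27.1, 26.3, 21.5, 30.5 and 25.1 CPM with JGT03 and at 17.6, 15.2, 15.1 and 18.7 with JGT04, also without overlap (log2 -0.64 ± 0.10, adjusted p = 0.00324). Tfrc, the transferrin receptor that brings iron into cells, stood at 135, 107, 108, 114 and 115 CPM with JGT03 and at 85.5, 46.2, 66.4 and 66.1 with JGT04. No library overlapped (log2 -0.81 ± 0.16, adjusted p = 0.015), and the adjusted p was 0.0525 without JGT03 mouse 1. With the adipocyte term these 4 kept log2 values of -0.63 (Efr3b), -0.65 (Leo1), -0.45 (St8sia5) and -0.68 (Tfrc). Nos1, neuronal nitric oxide synthase (log2 -0.72 ± 0.18, adjusted p = 0.0369), and Zfp770, a zinc finger protein (log2 -0.65 ± 0.17, adjusted p = 0.0465), were lower but lost their calls without most single libraries, 8 and 7 of 9, JGT03 mouse 3 never among them. Gbp6, an interferon-induced GTPase, was lower (log2 -0.85 ± 0.21, adjusted p = 0.0334), lost its call without JGT03 mouse 1 or 2 or JGT04 mouse 1, 2 or 3, and has 74.22% of its words in common with other genes.

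Growth signalling genes differed in both directions. Deptor, an inhibitor that binds mTOR, stood at 20.3, 19.4, 24.1, 24.1 and 21.1 CPM with JGT03 and at 29, 33.3, 30.8 and 29.6 with JGT04. All JGT04 mice were higher (log2 0.49 ± 0.08, adjusted p = 0.00565). Gsk3b, the kinase that restrains glycogen synthase and growth, stood at 86.9, 83.5, 80.7, 76.2 and 79.5 CPM with JGT03 and at 64.5, 68.2, 64.7 and 63.2 with JGT04, without overlap (log2 -0.32 ± 0.06, adjusted p = 0.0109). Irs1, which couples the insulin and IGF1 receptors to PI3 kinase, stood at 9.54, 6.98, 9.2, 6.64 and 7.59 CPM with JGT03 and at 4.38, 4.11, 5.51 and 5.28 with JGT04. It did not overlap either (log2 -0.73 ± 0.16, adjusted p = 0.0214), and lost its call without JGT03 mouse 1 or JGT04 mouse 1 or 2 (adjusted p up to 0.0675). Of 29 tested IGF and mTOR genes, 1 was higher and 3 lower, the third being Rheb, the GTPase that activates mTOR (log2 -0.19 ± 0.04, adjusted p = 0.0296). Igf1 itself stood at 8.4, 11.1, 22.9, 11.5 and 8.46 CPM with JGT03 and at 18.6, 22.8, 23 and 31.9 with JGT04, where JGT03 mouse 3 lay among the JGT04 mice. It missed the threshold (log2 0.94 ± 0.27, adjusted p = 0.0595), and passed without JGT03 mouse 3 (log2 1.29, adjusted p = 0.00199). It also passed with all mice by DESeq2 (adjusted p = 0.0392), with no filter (0.0294) and with a block on the mouse number (0.0401). In all 9 groups without the libraries that stand apart it passed too (0.0351), and its log2 value was 0.08 with the adipocyte term.

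Clock genes split in direction. Clock, the transcription factor that with Bmal1 drives the daily oscillator, stood at 20.6, 16.8, 17.9, 18.8 and 20.2 CPM with JGT03 and at 13.8, 13.2, 13.5 and 13.8 with JGT04, without overlap (log2 -0.47 ± 0.08, adjusted p = 0.00622). Nr1d1, the repressor Rev-erb alpha, stood at 204, 193, 166, 173 and 167 CPM with JGT03 and at 122, 91.7, 119.9 and 115 with JGT04. It was lower in every JGT04 mouse (log2 -0.69 ± 0.14, adjusted p = 0.0168) and lost its call without JGT03 mouse 1 or JGT04 mouse 2 (adjusted p up to 0.0525). Per2, a repressor of Clock, stood at 16.2, 13.8, 16.3, 13.6 and 15.1 CPM with JGT03 and at 21.7, 19.4, 20.5 and 17.7 with JGT04, higher in every JGT04 mouse (log2 0.40 ± 0.08, adjusted p = 0.0176), with an adjusted p of 0.052 without JGT04 mouse 1. Of 22 clock genes tested, 1 was higher, 2 lower and 19 did not pass. The hour of day at which each muscle was taken is not in the labels, and its part was not tested.

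Several chaperones of the endoplasmic reticulum (ER) were lower with JGT04. The ER folds secreted and membrane proteins, and when unfolded proteins build up the sensor Atf6 is cut and switches on chaperone genes through the ER stress element, a CCAAT box and a CCACG box 9 bases apart. A list of 40 ER genes was drawn up after values had been seen and is no independent evidence. Of 39 tested, 0 were higher and 8 lower, with 29 negative values and a median of -0.13. Over all genes tested 1.66% were lower, and the median was 0.0033. Some other lists were one-sided in sign as well. Negative were 25 of 29 heat shock and 25 of 32 glycolysis genes, and positive were 57 of 61 ribosomal protein genes. Hspa5 (BiP, the main ER chaperone; chromosome 2, 34771970 to 34777547) stood at 257, 295, 235, 241 and 232 CPM with JGT03 and at 192, 138, 168 and 161 with JGT04. No library overlapped (log2 -0.62 ± 0.13, adjusted p = 0.0172), and the call was lost without JGT03 mouse 1 or JGT04 mouse 2 or 4 (adjusted p up to 0.0566). Hsp90b1 (GRP94, the HSP90 of the ER) stood at 154, 155, 139.5, 131 and 151 CPM with JGT03 and at 115, 96.9, 113 and 106 with JGT04. It was likewise separate (log2 -0.45 ± 0.09, adjusted p = 0.0146) and kept its call without any 1 library. The others were Hyou1, a co-chaperone of BiP (log2 -0.45 ± 0.10, adjusted p = 0.0212), Manf, a secreted ER stress factor (log2 -0.51 ± 0.14, adjusted p = 0.0486), Dnajb9, a BiP cofactor (log2 -0.40 ± 0.10, adjusted p = 0.0308), Edem3 (log2 -0.43 ± 0.10, adjusted p = 0.028) and Vimp (log2 -0.43 ± 0.12, adjusted p = 0.0486), which serve disposal of misfolded proteins, and Atf6 itself (log2 -0.34 ± 0.09, adjusted p = 0.0356). Each of these 6 lost its call without 2 to 8 of the single libraries, JGT03 mouse 1 and JGT04 mouse 2 among them each time. Without JGT03 mouse 3, 8 of the 39 were lower and 0 higher, where 463 of all 14325 genes were lower. With the adipocyte term the median was -0.23, with 35 of 39 negative. Over all genes 7591 of 14342 were negative with that term. Atf6 aside, the sensors and transcription factors of the list did not pass.

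The promoters of Hspa5 and Hsp90b1 are shown because these genes passed and hold the ER stress element, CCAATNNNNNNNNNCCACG, searched on both strands. Each sequence is the 250 bases before the start site in RefSeq (GRCm38.p6), 5′ to 3′ on the gene's strand, with the element in capitals. In the second sequence the later element lies on the opposite strand and is read as its reverse complement.
Hspa5, chr2:34771840-34772089, plus strand: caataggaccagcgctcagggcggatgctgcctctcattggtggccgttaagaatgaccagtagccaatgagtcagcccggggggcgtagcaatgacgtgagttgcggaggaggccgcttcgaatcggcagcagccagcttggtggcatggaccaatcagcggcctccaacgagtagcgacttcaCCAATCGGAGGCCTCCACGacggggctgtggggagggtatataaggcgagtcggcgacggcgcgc
Hsp90b1, chr10:86705445-86705694, minus strand: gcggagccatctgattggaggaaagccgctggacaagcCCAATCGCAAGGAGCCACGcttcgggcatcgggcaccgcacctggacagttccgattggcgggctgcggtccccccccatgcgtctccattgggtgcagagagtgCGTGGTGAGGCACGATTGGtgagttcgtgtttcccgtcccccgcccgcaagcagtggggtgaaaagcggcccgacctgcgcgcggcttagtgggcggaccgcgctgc
The element begins 65 bases before the start site in Hspa5, and 212 and 107 bases before it in Hsp90b1. Over all RefSeq promoters, windows of 300 bases from 250 before to 50 after the start, 39 of 32851 held it (0.119%). Of the 40 ER genes 34 had a window and 9 held the element: Hspa5, Hsp90b1, Calr, Canx, Pdia6, Dnajc3, Creld2, Syvn1 and Derl3. All 8 of these that were tested had negative log2 values, as did 29 of all 39 ER genes tested. Of the 8, 2 passed. Of the 8 ER genes that passed, 5 had a window and 2 of these held it. A match is a run of letters and was not tested as a binding site.

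A few regulators of muscle and autophagy were lower with JGT04. Myf6, the myogenic factor of mature fibres, stood at 42.6, 49.3, 39, 44.7 and 42.7 CPM with JGT03 and at 27.4, 32.4, 33 and 27.9 with JGT04, without overlap (log2 -0.53 ± 0.10, adjusted p = 0.00854). Esrrg, a nuclear receptor of oxidative metabolism that is high in slow muscle, stood at 96.7, 77.4, 97.6, 71.2 and 87.1 CPM with JGT03 and at 55.7, 57.5, 58.6 and 65.7 with JGT04, also without overlap (log2 -0.54 ± 0.10, adjusted p = 0.0112). Its relative Esrrb was lower (log2 -0.46 ± 0.10, adjusted p = 0.0172; lost without JGT03 mouse 1 or JGT04 mouse 1 or 2). Wipi1, which helps build autophagosomes, stood at 93.6, 99.2, 87.8, 90.8 and 93 CPM with JGT03 and at 79.4, 74.4, 72.5 and 78.5 with JGT04, without overlap (log2 -0.29 ± 0.05, adjusted p = 0.0105), and the autophagy receptor Optn was lower too (log2 -0.35 ± 0.07, adjusted p = 0.0151; adjusted p = 0.0525 without JGT03 mouse 1). Of 32 autophagy and lysosome genes 0 were higher and 2 lower. Of 18 slow-fibre genes only Casq2, the calsequestrin of slow and cardiac muscle, passed (log2 -0.36 ± 0.09, adjusted p = 0.0397), with overlapping groups, and it lost its call without any 1 library except JGT03 mice 3 and 4. Of 19 fast-fibre genes 0 passed by edgeR, 2 had an unadjusted p under 0.05 and 0 passed by DESeq2.

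The atrophy genes best known from DEX treatment did not pass. Fbxo32 (atrogin-1), the muscle ubiquitin ligase, stood at 222, 213, 245, 229 and 237 CPM with JGT03 and at 221, 231, 225 and 259 with JGT04 (log2 0.03 ± 0.08, adjusted p = 0.882). Trim63 (MuRF1) stood at 100.4, 99.8, 93.6, 103 and 91.5 CPM with JGT03 and at 80.1, 90, 90.2 and 96.2 with JGT04 (log2 -0.13 ± 0.07, adjusted p = 0.297). In both genes the groups overlapped. The summed level of 20 muscle ubiquitin ligases, these genes among them, was 1991 to 2144 CPM with JGT03 and 1886 to 2017 with JGT04 at 400 mg/kg. It was 1670 to 1949 CPM in soleus with DEX alone and 2330 to 2848 in non-treated soleus. Among 19 panel genes of atrophy, glucocorticoid action and fibre type 1 passed by edgeR, Foxo1, a driver of atrophy genes (23 ± 1.78 against 27.8 ± 2.44 CPM; log2 0.28 ± 0.07, adjusted p = 0.0468), with overlap, and it lost its call without 6 single libraries: JGT03 mouse 1, 4 or 5 and JGT04 mouse 2, 3 or 4. DESeq2 called 3 of the 19, Foxo1, Hsd11b1 and Igf1. The glucocorticoid receptor gene Nr3c1 was at 78 ± 4.77 against 72.3 ± 0.502 CPM (log2 -0.11 ± 0.06, adjusted p = 0.287). Its targets Fkbp5 (log2 -0.26 ± 0.11, adjusted p = 0.169), Tsc22d3 (log2 0.10 ± 0.09, adjusted p = 0.57), Klf15 (log2 -0.32 ± 0.11, adjusted p = 0.0981) and Per1 (log2 0.02 ± 0.17, adjusted p = 0.967) did not pass. Hsd11b1, the enzyme that regenerates active glucocorticoid and a target of glycyrrhetinic acid, stood at 4.29, 5.92, 12, 5.94 and 6.54 CPM with JGT03 and at 11.7, 12, 16.2 and 15.5 with JGT04. JGT03 mouse 3 again lay with the JGT04 mice, and the gene missed the threshold (log2 1.00 ± 0.28, adjusted p = 0.0556). It passed without that mouse (log2 1.298, adjusted p = 0.004). With all mice it passed by DESeq2 (0.0356), with DESeq2 size factors (0.0495), with no filter (0.0265) and with a block on the mouse number (0.0271). It also passed in all 9 groups without the libraries that stand apart (0.0443). Its log2 value was 0.08 with the adipocyte term. Pdk4, which turns fuel use toward fat, overlapped and missed the threshold (76.1 ± 32.4 against 142 ± 55.3 CPM; log2 0.90 ± 0.27, adjusted p = 0.0667). It passed with no filter (0.0361) and without JGT03 mouse 2 (0.0369), JGT03 mouse 3 (0.0297) or JGT04 mouse 1 (0.0464). Its log2 value was 0.32 with the adipocyte term. The other panel genes were Foxo3, Mstn, Ppargc1a, Sirt1, Myh7, Myh2, Myh1 and Myh4, with log2 values from -0.54 ± 1.02 in Myh4 to -0.01 ± 0.10 in Sirt1. Of 33 glucocorticoid receptor genes and targets 1 was higher (Foxo1) and 1 lower, the cell cycle inhibitor Cdkn1a (log2 -0.55 ± 0.14, adjusted p = 0.0424), which lost its call without 7 of the 9 libraries, the exceptions being JGT03 mouse 3 and JGT04 mouse 1.

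**Figure D4:**
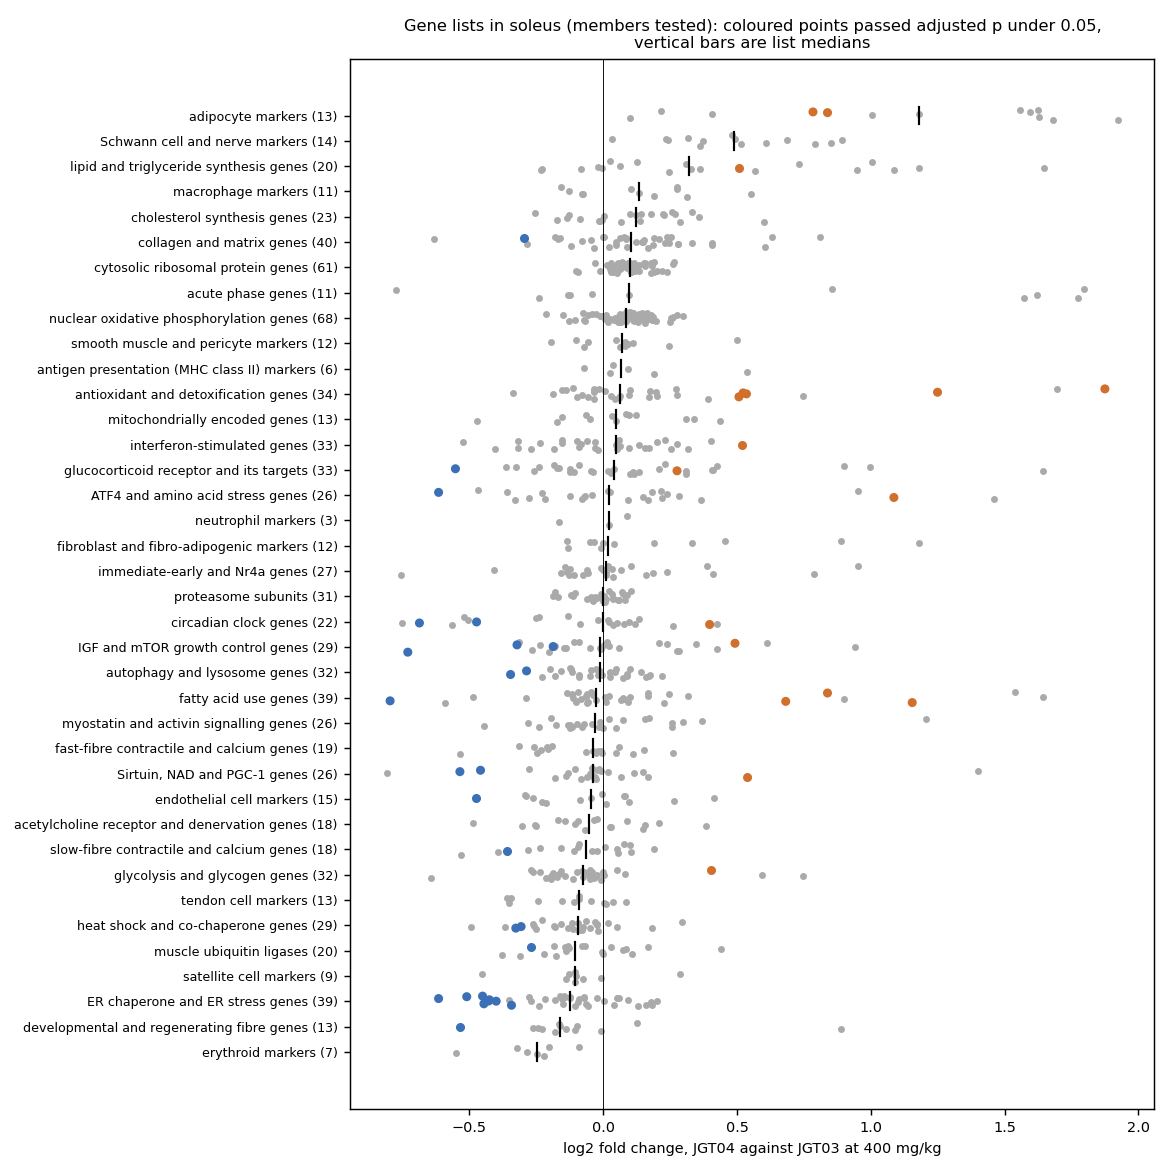
Log2 fold change of JGT04 against JGT03 at 400 mg/kg for the tested members of the gene lists, with the number tested in brackets. The panel and the lists of B cell (1 tested) and T and NK cell markers (0 tested) are not shown. Coloured points passed (orange higher, blue lower) and bars are list medians. Among the lists shown, the median of the adipocyte markers lies farthest from 0, at 1.18.

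The remaining lists held few calls. Their counts at an unadjusted p under 0.05 stand beside 2982 of all 14342 genes tested. Heat shock genes had 0 higher and 2 lower of 29 (Hspa4, log2 -0.31 ± 0.07, adjusted p = 0.0317, and Bag3, log2 -0.33 ± 0.09, adjusted p = 0.0474), Sirtuin, NAD and PGC-1 genes 1 higher (Naprt, log2 0.54 ± 0.14, adjusted p = 0.0378) and 2 lower of 26, and collagen and matrix genes 0 higher and 1 lower of 40 (P4ha1, log2 -0.30 ± 0.08, adjusted p = 0.0391). Hspa4, Bag3, Naprt and P4ha1 each lost their call without 5 to 8 of the single libraries, JGT03 mouse 1 among them. Developmental fibre genes had 0 higher and 1 lower of 13 (Myf6), ATF4 genes 1 and 1 of 26 (Asns, Hspa5), glycolysis genes 1 and 0 of 32 (Pfkfb1, log2 0.40 ± 0.11, adjusted p = 0.0491) and interferon genes 1 and 0 of 33 (Ifi27, log2 0.52 ± 0.12, adjusted p = 0.0273). Of these Ifi27 lost its call without 4 single libraries and Pfkfb1 without 8, JGT03 mouse 1 among them. None passed by edgeR among 68 nuclear oxidative phosphorylation genes (median 0.09, 4 with an unadjusted p under 0.05), 13 mitochondrially encoded (0.05, 2), 61 ribosomal protein (0.10, 2), 31 proteasome (0.00039, 4), 23 cholesterol synthesis (0.12, 5), 26 myostatin and activin (-0.03, 6), 27 immediate-early (0.01, 4), 18 acetylcholine receptor (-0.05, 4) and 11 acute phase genes (0.09, 5). DESeq2 called 1 gene each in the proteasome (Psmc6), myostatin (Inhbb) and acute phase (Serpina3n) lists and 0 in the other 6. Without JGT03 mouse 3, 4 acute phase genes, 2 proteasome genes and 1 myostatin and activin gene passed. Over all genes DESeq2 called 873 of 14342, and 1059 of 14325 passed without that mouse. Among other cell types, endothelial markers had 1 lower of 15, the VEGF receptor Kdr (log2 -0.48 ± 0.10, adjusted p = 0.0162; lost without JGT03 mouse 1 or JGT04 mouse 4), with summed levels of 651 to 702 CPM in JGT03 and 524 to 703 in JGT04. Schwann cell markers had none of 14, with a median of 0.49, 8 at an unadjusted p under 0.05 and 0 called by DESeq2. Their sum was 136 to 198 CPM with JGT03 and 164 to 210 with JGT04 apart from JGT04 mouse 3 at 535. Of the B cell markers 1 was tested and was higher, the immunoglobulin gene Ighm (log2 1.89 ± 0.49, adjusted p = 0.0431; overlapping, and lost without 7 of the 9 libraries, the exceptions being JGT03 mouse 3 and JGT04 mouse 2), with a log2 value of 0.38 with the adipocyte term. With all mice, none passed by edgeR among markers of smooth muscle, fibroblasts, tendon, macrophages, antigen-presenting cells, neutrophils, erythroid cells and satellite cells (12, 12, 13, 11, 6, 3, 7 and 9 tested, with 1, 2, 1, 0, 0, 0, 0 and 1 at an unadjusted p under 0.05 and 0 called by DESeq2), and no T or NK cell marker reached the count needed for a test. Without JGT03 mouse 3, 2 fibroblast markers (Dpt and Gsn) were higher, and of the collagen and matrix genes 3 were higher (Col5a3, Col18a1 and Sparc) and 1 lower.

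At the lower dose of 100 mg/kg the same 2 extracts were compared in 10 other mice, and no gene passed by edgeR (0%). An unadjusted p under 0.05 was reached by 1394 genes, DESeq2 called 10, and the smallest adjusted p was 0.0571. Of the 409 genes called at 400 mg/kg, 334 (81.7%) had the same sign at 100 mg/kg, where over all genes tested 61.4% did. Of the 171 higher genes 122 had the same sign and of the 238 lower genes 212. The same sign with an unadjusted p under 0.05 was seen in 89 and the opposite in 1. Their median change in the direction found at 400 mg/kg was 0.10, against a median size of 0.44 at 400 mg/kg, for which they had been selected. Among the 24 largest named genes 19 kept their sign, 5 of them with an unadjusted p under 0.05, among them Adh1 (log2 0.29 ± 0.12), Irs1 (-0.44 ± 0.14), Leo1 (-0.26 ± 0.09) and Zfp770 (-0.59 ± 0.16). The value of Zfp770 was near that at 400 mg/kg (-0.65 ± 0.17). Of 13 adipocyte markers 0 passed by edgeR at this dose, 0 by DESeq2 and 0 had an unadjusted p under 0.05, with a median log2 of 0.05.

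The change of the difference with dose was tested as an interaction, and no gene passed by edgeR (0%). An unadjusted p under 0.05 was reached by 1352 genes, DESeq2 called 19, and edgeR called 158 without JGT03 400 mg/kg mouse 3 (136 positive, 22 negative). The smallest adjusted p was 0.136. DESeq2's 19 calls, with all mice included, held Gstt1, Gsta3, Acot2 and Wipi1 among the listed genes. By edgeR, Cyp26b1 and Efr3b had unadjusted p-values of 2.85e-05 and 2.37e-05, and did not pass. Both were selected by their difference at 400 mg/kg, and those same values enter the interaction, so small p-values are favoured in advance. Of the 24 largest named genes 21 had an unadjusted p under 0.05 in it.

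**Figure D5:**
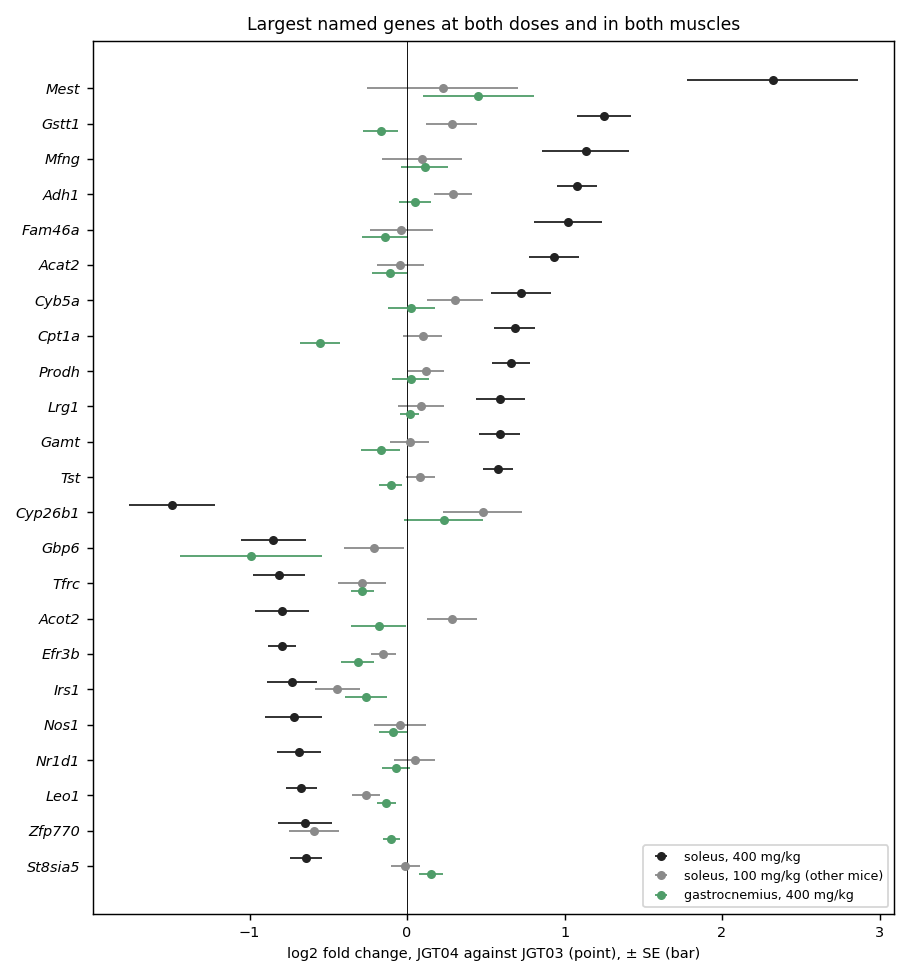
Log2 fold change of JGT04 against JGT03 ± SE for 23 of the 24 largest named genes in soleus at 400 mg/kg (black), soleus at 100 mg/kg in other mice (grey) and gastrocnemius at 400 mg/kg (green). All lie farther from 0 at 400 mg/kg, the dose at which they were selected, than at 100 mg/kg, and Cpt1a lies on opposite sides of 0 in the muscles.

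In the gastrocnemius, a mixed fast muscle that may come from the same mice, JGT04 differed from JGT03 at 400 mg/kg in 521 of 14031 genes (3.71%). That count was 330, 313 and 255 without gastrocnemius JGT03 mouse 1, 2 or 5, and 213, 204 and 229 without JGT04 mouse 1, 2 or 4. The lists overlapped in 18 genes, 4.51% of the 399 soleus calls tested there and 3.45% of the gastrocnemius calls, with 14 in the same direction and 4 in the opposite. Of the 24 largest soleus genes 3 passed in gastrocnemius. Among them Tfrc (log2 -0.28, adjusted p = 0.0369) was lower in both muscles, and Cpt1a (-0.55, 0.0185) was lower in gastrocnemius and higher in soleus. Fbxo32 was higher with JGT04 in gastrocnemius (0.51, 0.0305), and in soleus it was at 0.03 ± 0.08 at 400 mg/kg. In soleus at 100 mg/kg Fbxo32 had a log2 value of 0.32 ± 0.08 (unadjusted p = 0.000409, adjusted p = 0.285), which edgeR did not call and DESeq2 did.

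The levels of the 24 genes were set beside the other soleus groups. The non-treated mean was nearer to JGT03 than to JGT04 at 400 mg/kg, on the log2 scale, in 12 of 12 higher and 11 of 12 lower genes. The DEX mean was nearer to JGT03 in 6 of 12 higher and 10 of 12 lower genes. Both groups at 100 mg/kg lay between the groups at 400 mg/kg in all 12 higher genes, and in 10 (JGT03) and 12 (JGT04) of the lower ones. The 24 genes were selected for a wide gap between the groups at 400 mg/kg, which favours such a position for any other group. Resveratrol lay between in 11 higher and 12 lower genes, and DEX in 10 and 10. For JGT02 these counts were 4 and 8 at 100 mg/kg and 11 and 8 at 400 mg/kg, and for non-treated mice 5 and 3. Gstt1 averaged 4.04 ± 0.46 CPM in non-treated mice, 4.74 ± 1.98 with DEX, 7.17 ± 0.88 and 8.68 ± 1.54 with JGT03 and JGT04 at 100 mg/kg and 8.60 ± 1.43 with resveratrol, beside 5.21 ± 1.56 and 12.4 ± 1.56 at 400 mg/kg. Hspa5, which is not among the 24 genes, averaged 174 ± 34.9 CPM in non-treated mice and 273 ± 60.3 with DEX. JGT04 at 400 mg/kg (165 ± 22.0) lay near the former and JGT03 (252 ± 25.6) near the latter. That is opposite to the non-treated position of 11 of the 12 lower genes. The levels of the other ER genes in these groups are not given here. These means are descriptions. The DEX and non-treated mice received no cellulose vehicle, so that against them extract and vehicle cannot be told apart.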

How the data were processed

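RNA was sequenced from soleus and gastrocnemius of 43 mice per muscle (100 bp paired reads, strand-specific MGIEasy kit). The values the authors deposited are expected counts per gene symbol, and the submitters' processing notes list RSEM 1.3.3, STAR 2.7.3a, Trim Galore 0.6.5 and FastQC 0.11.9, with the build GRCm38. The annotation, strand setting and filters are not given in the sources used here. Of the values 92.0% were whole, and 13515 of 42807 genes had no count in any library. Here expected counts were rounded.

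The 19 soleus libraries of JGT03 and JGT04 at both doses were fitted together, so that the groups share 1 estimate of spread. Groups with libraries known to stand apart (JGT02) entered only as an alternative. Genes were filtered with filterByExpr, scaled by TMM, and tested with the quasi-likelihood test of edgeR 4.0.16 (R 4.3.3). SEs were derived from the test's F. Gastrocnemius was fitted likewise. The comparison, groups, gene lists (26 of pathways, 13 of cell types, 1 of ER genes added later) and alternatives were chosen with earlier results of these data known. Lists are described by counts and medians, with no set test.

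Named genes were the 12 largest differences in each direction that passed, averaged at least 5 CPM over the 9 libraries, did not overlap between groups and were not predicted genes, plus up to 2 passing members per list and direction with the smallest p, a panel of 19 genes, and the ER genes that passed. Fmo1, Fmo2, Gpx1, Rheb, Adipoq, Lep, Plin1 and genes called only by DESeq2 or only without JGT03 mouse 3 were named after their values were seen. For the lower dose and the dose difference none qualified. Positions are from GENCODE vM21 on GRCm38, found for all 77 named genes, and the promoters from RefSeq (GRCm38.p6). Over 10% of the 31-base words recur elsewhere for 9 of the 77. For 21, Mest, Adh1, Efr3b, Irs1, Nos1, Nr1d1, St8sia5, Deptor, Hsp90b1, Manf and Dnajb9 among them, a gene lies antisense to an exon, and if strand was not used in counting its reads are mixed in.

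Within a muscle each library is of another mouse per the labels, and the muscles may come from the same mice. Libraries of a group had at most 1.91% of genes (over 20 counts in the pair) with equal counts, so none is a copy. Other settings tried were each library left out in turn, a block on the mouse number, no filter, a fold threshold, DESeq2 1.42.0 or its size factors alone, only the groups compared, all 9 soleus groups with and without the libraries that stand apart, and, added after the data were seen, the adipocyte marker level as a covariate. The fit was tested on simulated data with known changes. Figures were made with Python 3.11.15 and matplotlib 3.10.9. Results for 2 named genes are not reported here.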

Additional observations from a re-analysis of the deposited data

Results flagged for a closer look

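Within the groups of 4 and 5 libraries, the gap of the highest or lowest library to its neighbour exceeded Dixon's 95% limit in 17 of 182 groups of values examined (9.34%, where chance gives about 5%). JGT03 mouse 3 accounted for 10 of these. It was high in Mest (6.49 CPM), Acat2 (7.86), Cyb5a (25.2), Dgat2 (225), Fabp4 (392) and Igf1 (22.9), low in Myh2 (4321), and high in the summed markers of adipocytes without Car3 (1154), fibroblasts (1471) and MHC class II antigen presentation (26.5). JGT03 mouse 4 was low in Myh7 (4491 CPM) and Atf6 (26.2) and high in tendon markers (317), and JGT03 mouse 2 was high in Vimp (42.9). JGT04 mouse 1 was low in Adh1 (15.8 CPM) and high in Naprt (6.31), and JGT04 mouse 3 was high in Schwann cell and nerve markers (535).

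In 2 of the 77 named genes, many of which were chosen for groups that do not overlap in soleus, every JGT04 library lay above every JGT03 library in soleus and below in gastrocnemius at 400 mg/kg. Cpt1a had log2 values of 0.68 in soleus and -0.55 in gastrocnemius, and Gsta3 of 1.87 and -0.82, the latter not past the threshold (adjusted p = 0.0616). Over all 13688 genes tested in both muscles, 13 showed this pattern. The difference between the muscles was not tested.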

How the results depend on the processing

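The count of genes that differed between the extracts at 400 mg/kg in soleus (409) was 873 with DESeq2, 186 in a fit of only the groups compared, 2 in a fit of all 9 soleus groups (Adh1 and Gstt1), 50 with a fold threshold of 2 and 0 with the adipocyte term. It ran from 66 to 1059 when 1 library was left out. It was within 1.5 times of 409 with DESeq2 size factors (472), no filter (463) and all 9 groups without the libraries that stand apart (534). The share of higher genes, 41.8%, was 57.0% with no filter and 56.3% with the block. With the mouse number as a replicate block the count was 474, and 6 of the 59 named genes that passed lost their call. Deviations of same-numbered mice at 400 mg/kg correlated at -0.02 to 0.16, and mice 1 and 2 correlated best with their own number. Weak correlations of so few pairs cannot decide whether same-numbered mice had a handling step in common, which was not tested further. At 100 mg/kg the count (0) was 10 with DESeq2, 2 with its size factors, 2 with no filter, 4 with the block and 0 to 2 with 1 library left out. For the dose difference (0) it was 19 with DESeq2, 1 with no filter and 0 to 158 with 1 library left out. In gastrocnemius (521) it ran from 204 to 429 with 1 library left out, and was 649 with DESeq2. Of the 59 named genes that passed, 57 lost their call with all 9 groups and 8 with all 9 groups without the libraries that stand apart, 16 with only the groups compared, 59 with the adipocyte term, 1 with no filter and 0 with DESeq2 or its size factors, and none of the 59 changed direction. The cause of these changes was not tested. Genes under the count filter were not tested, T and NK cell markers among them.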
